A study of Mus musculus with 35 samples.

Results

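The corticosteroid and CRH stress axis genes were examined as a set of 10 genes: the receptor genes Nr3c1 and Nr3c2, the receptor co-chaperones Fkbp5 and Fkbp4, the peptide gene Crh with its receptor Crhr1 and its binding protein Crhbp, the corticosteroid enzyme gene Hsd11b1, and the corticosteroid target genes Sgk1 and Tsc22d3. Members were found as all probes that the platform annotation gives one of these symbols. This yielded 9 of the 10 genes, among 15967 genes named on the array, read by 14 of its 24620 probes. Nr3c2 was named by no probe, so it has no value here. Of the 14 probes, 7 (of 6 genes) were detected on at least 8 of the 35 arrays and were tested among 10408 tested probes, and the other 7 are described by their values only.

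Expression was measured in 4 groups of male mice, with no treatment named, aged 3 to 4 months, of the inbred strains A/J and C57BL/6J, which differ in behavioral traits. The groups were A/J hippocampus (n = 9), C57BL/6J hippocampus (n = 9), A/J amygdala (n = 8) and C57BL/6J amygdala (n = 9), each array holding the labelled RNA of one mouse sample. Tissue came as needle punches from frozen coronal sections, the amygdala from both sides and the hippocampus from the left side, so a sample mixes the neurons, glia and vessels of the punch and may hold bordering tissue. The labels tie no hippocampus sample to an amygdala sample of the same animal, and the p-values measure the spread between these samples. The comparisons ask whether the genes of the stress axis differ between the regions, between the strains, and in the size of the region difference between the strains.

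Corticosteroids are released by the adrenal gland at the end of a cascade that starts with corticotropin-releasing hormone (CRH) in the hypothalamus. In the brain they bind 2 nuclear receptors, the glucocorticoid receptor (Nr3c1) and the mineralocorticoid receptor (Nr3c2), which are held ready for the hormone by Hsp90 and its co-chaperones and which then act on target genes. Both the hippocampus and the amygdala carry these receptors and take part in the control of the axis. CRH also acts within the forebrain as a neuropeptide, through the receptor Crhr1, and Crhbp binds the free peptide.

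Arrays detected between 6099 and 11039 probes each, where detected means a detection p-value under 0.01 against the negative control beads. Group medians were 9506 in A/J hippocampus, 8696 in C57BL/6J hippocampus, 9023 in A/J amygdala and 7944 in C57BL/6J amygdala. Levels are given as normalized log2 signals, and a difference of 1 on this scale is a doubling of the signal. The lowest level of any detected probe on an array lay between 5.05 and 6.56, with a median over arrays of 5.51. Levels of different probes are not compared with each other, because each probe has its own hybridization strength. Hippocampus markers were higher in the hippocampus for 4 of the 5 tested (median difference 1.32), and their summed level on the linear scale ranged from 3422 to 7191 in A/J hippocampus and from 4647 to 10477 in C57BL/6J hippocampus, against 726 to 1378 and 665 to 1983 in the amygdala of these strains. Amygdala and ventral forebrain markers were lower in the hippocampus for 6 of the 7 tested, the exception being Prkcd, which was higher there. Striatal (3 of 3 tested), hypothalamic (3 of 3), GABAergic (3 of 5) and oligodendrocyte (5 of 6) markers were likewise lower in the hippocampus punches. Of all these markers, Isl1, Penk, Drd2, Avp and Oxt were tested only because of their detection in the amygdala. Their direction is therefore not independent of the filter. The hypothalamic list had 6 genes with a probe, of which Hcrt, Sim1 and Otp were not tested. Beside these marker counts, the share passing among all 10408 tested probes was 6.42% toward hippocampus and 5.76% toward amygdala. The part of this difference in makeup in the region results was not tested, and with punched tissue, fewer cells of a type and less RNA per cell cannot be told apart.

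The promoter windows of 3 member genes are shown because corticosteroid receptors act through short DNA elements. On the arrays, Hsd11b1 and Fkbp5 differed between regions, and Sgk1 did not pass the test. A link between the windows and these region results was not tested. Each window is RefSeq sequence of build GRCm38.p6, from 250 bases before to 50 bases after an annotated start, 5′ to 3′ on the strand of the gene. Capitals mark the core of the corticosteroid response element, TGTTCT, or its reverse complement AGAACA. The windows lie at chr1:193242311-193242610 (minus strand, Hsd11b1), chr17:28486100-28486399 (minus strand, Fkbp5) and chr10:21993640-21993939 (plus strand, the fifth of 6 annotated Sgk1 starts).
Hsd11b1: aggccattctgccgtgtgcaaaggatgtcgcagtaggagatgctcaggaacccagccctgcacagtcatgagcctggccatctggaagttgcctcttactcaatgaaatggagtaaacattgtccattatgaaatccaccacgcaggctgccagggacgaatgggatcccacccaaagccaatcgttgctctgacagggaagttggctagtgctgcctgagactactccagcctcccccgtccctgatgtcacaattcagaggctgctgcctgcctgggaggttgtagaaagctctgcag
Fkbp5: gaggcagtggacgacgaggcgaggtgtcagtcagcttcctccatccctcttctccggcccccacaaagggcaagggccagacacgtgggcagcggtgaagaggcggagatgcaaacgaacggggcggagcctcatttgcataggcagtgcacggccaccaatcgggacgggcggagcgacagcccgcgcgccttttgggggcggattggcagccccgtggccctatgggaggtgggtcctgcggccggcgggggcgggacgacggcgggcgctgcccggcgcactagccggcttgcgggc
Sgk1: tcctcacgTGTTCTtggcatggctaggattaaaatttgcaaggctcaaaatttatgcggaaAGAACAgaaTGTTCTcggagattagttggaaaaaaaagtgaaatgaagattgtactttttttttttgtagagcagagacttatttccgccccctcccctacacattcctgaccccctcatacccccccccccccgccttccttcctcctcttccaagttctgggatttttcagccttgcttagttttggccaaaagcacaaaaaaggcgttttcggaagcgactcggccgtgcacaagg

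The Sgk1 window holds the core 3 times, with its first letter 242, 189 and 180 bases before the start. The copies at 189 and 180 bases face each other across 3 bases and form the full palindrome to which a receptor pair binds. This palindrome was present in 3 of 32851 promoter windows of this length, 0.00913% of them, while the single core was present on either strand in 19.0% of them. Of the 6 Sgk1 windows only the one shown holds the palindrome, so that its rarity belongs to that window and not to the gene. The Hsd11b1 and Fkbp5 windows hold no copy of the core. Over the 15 windows used for 8 member genes, 4 held at least 1 copy, namely 3 of the 6 Sgk1 windows and 1 of the 3 Tsc22d3 windows. Member windows on chromosome 18, where Nr3c1 lies, were left out. A match is a description of the letters and not of a site in use, and elements outside these windows were not searched. The Fkbp5 window is rich in G and C (70.7%) and holds 32 CG pairs, against 54.7% and 6 CG pairs for Hsd11b1 and a median of 52.7% and 7 over all windows.

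Hsd11b1 showed the clearest regional pattern of the set. The gene encodes 11-beta-hydroxysteroid dehydrogenase type 1, which regenerates active corticosterone from inert 11-dehydrocorticosterone inside the cell. Probe 1 was detected on all 35 arrays. Its levels in A/J hippocampus ranged from 9.71 to 10.31 with a median of 9.83. In C57BL/6J hippocampus they ranged from 9.80 to 10.90 with a median of 10.17. The hippocampus arrays of both strains thus lay in one band. The A/J amygdala levels were 7.69, 7.74, 7.82, 7.92, 7.96, 8.59, 8.60 and 8.61. The C57BL/6J amygdala levels ranged from 8.32 to 8.74 with a median of 8.58. Each of the 18 hippocampus arrays lay above each of the 17 amygdala arrays within each strain and across strains, and among the A/J amygdala arrays none lay between 7.96 and 8.59.

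Averaged over strains, the probe 1 signal was 3.39-fold higher in hippocampus (difference 1.76, SE 0.10, 95% interval 1.55 to 1.97, adjusted p = 6.6e-16), with hippocampus means of 9.93 ± 0.22 (SD, n = 9) for A/J and 10.26 ± 0.33 (n = 9) for C57BL/6J and amygdala means of 8.12 ± 0.41 (n = 8) and 8.55 ± 0.17 (n = 9). On 10 of the 10 chips that carried both regions the hippocampus mean was the higher one. The A/J mice showed a difference of 1.82 and the C57BL/6J mice one of 1.71, and the contrast between these (0.11, 95% interval -0.31 to 0.53, adjusted p = 0.877) did not pass the test. The labels name no chip lot, but the chip IDs fell into 2 sets by their first digits, called lots here. Lots 1 and 2 held 4 and 5 A/J hippocampus and 6 and 3 C57BL/6J hippocampus arrays. They held 4 and 4 A/J amygdala and 7 and 2 C57BL/6J amygdala arrays, so the strains were spread unevenly over the lots. The probe 1 region difference was 1.83 within lot 1 (adjusted p = 3.5e-09) and 1.66 within lot 2 (adjusted p = 1.1e-04).

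Probe 2 of Hsd11b1 was detected on fewer arrays and read the same direction. It was detected on 8 of 9 A/J and 8 of 9 C57BL/6J hippocampus arrays, and on 6 of 8 and 4 of 9 amygdala arrays. Levels in A/J hippocampus ranged from 6.18 to 8.87 with a median of 7.51. In C57BL/6J hippocampus they ranged from 5.24 to 8.93 with a median of 7.51. The corresponding ranges were 5.07 to 6.65 (median 5.68) in A/J amygdala and 4.50 to 6.79 (median 5.63) for C57BL/6J. The regions overlapped, and 13 of 18 hippocampus arrays lay above the highest amygdala array. The signal was 3.42-fold higher in hippocampus (difference 1.77, SE 0.29, adjusted p = 1.2e-05). It was higher there on 10 of 10 chips. The amygdala mean of 5.68 lay next to the mean lowest detectable level of these arrays, 5.63, and the C57BL/6J amygdala mean of 5.57 lay below that level. The fold is therefore set against a level near background. The 9 arrays on which this probe was undetected all had at most 8440 detected probes, and with the number of detected probes in the fit the difference was 1.90 (adjusted p = 7.2e-13).

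**Figure D1:**
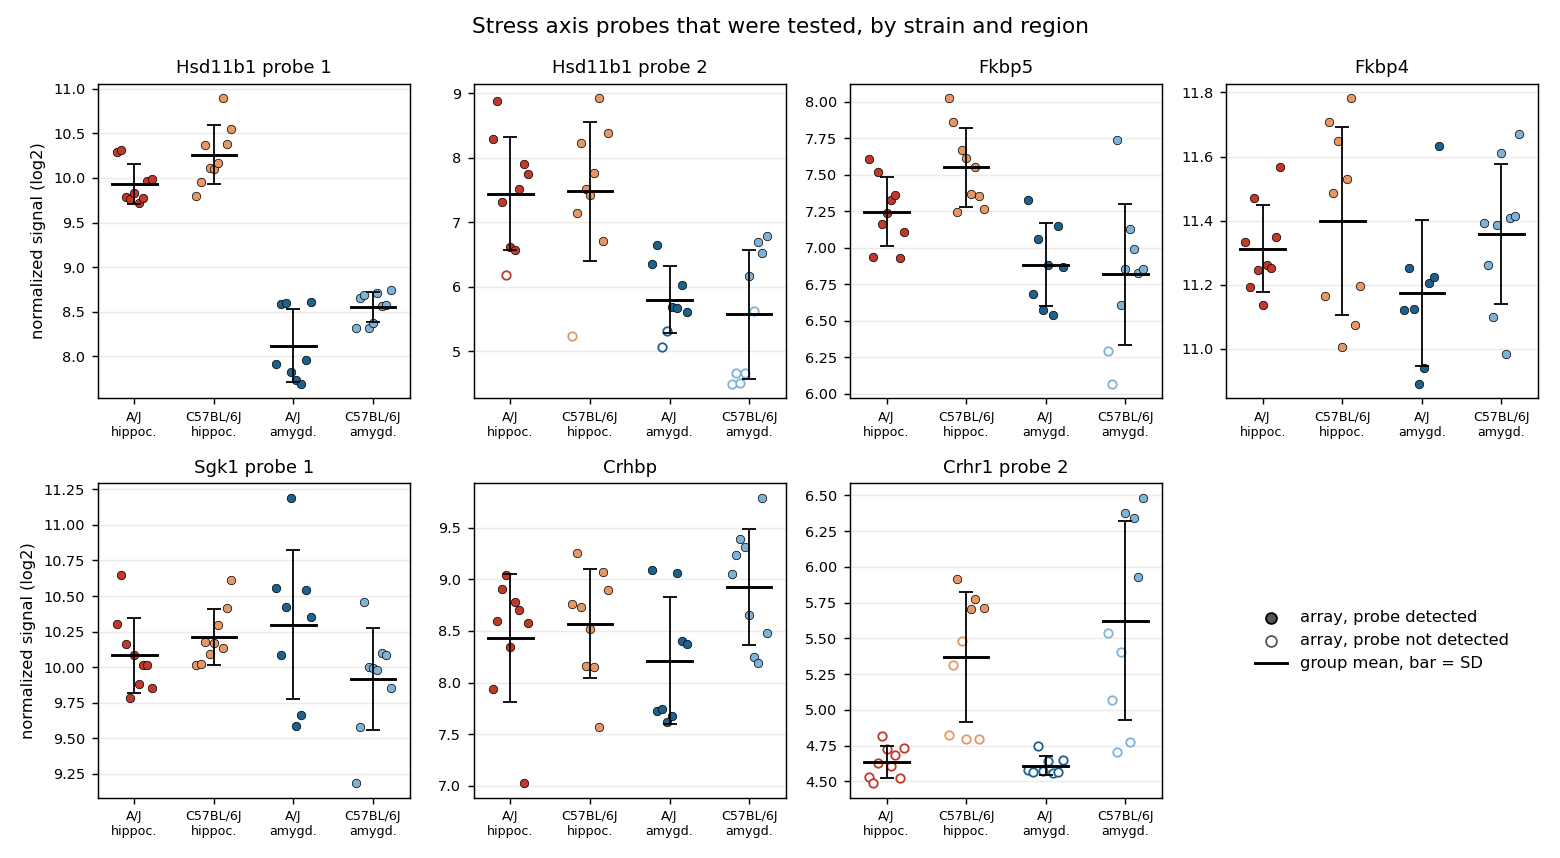
Normalized log2 signal of the 7 tested probes, one point per array in the 4 strain and region groups, filled where the probe was detected and open where it was not, with group means and SD bars. Hsd11b1 probe 1 separates the 18 hippocampus arrays from the 17 amygdala arrays, and Crhr1 probe 2 was detected on 8 C57BL/6J arrays and on none of the 17 A/J arrays.

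Fkbp5 was the other member that differed between regions. It encodes FKBP51, a co-chaperone that lowers the hormone affinity of the glucocorticoid receptor and whose gene is itself switched on by the hormone. The probe was detected on 33 of 35 arrays, the exceptions being 2 C57BL/6J amygdala arrays. Levels ranged from 6.93 to 7.61 (median 7.24) in A/J hippocampus, from 7.25 to 8.03 (median 7.55) in C57BL/6J hippocampus, from 6.54 to 7.33 (median 6.87) in A/J amygdala and, for C57BL/6J amygdala, from 6.07 to 7.74 (median 6.85). All 18 hippocampus arrays lay above the amygdala median, and 11 of 17 amygdala arrays lay below the lowest hippocampus array, so that the regions overlapped in part.

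The Fkbp5 signal was 1.46-fold higher in hippocampus (difference 0.55, SE 0.12, 95% interval 0.31 to 0.78, adjusted p = 4.8e-04), and it was higher on 9 of 10 chips. Means were 7.25 ± 0.24 and 7.55 ± 0.27 (SD, n = 9 each) in the hippocampus of A/J and C57BL/6J, and 6.89 ± 0.28 (n = 8) and 6.82 ± 0.48 (n = 9) in the amygdala. The A/J mice showed a difference of 0.36 and the C57BL/6J mice one of 0.73. The contrast between strains was -0.37 (95% interval -0.84 to 0.10, adjusted p = 0.689) and did not pass the test. Fitted on the arrays of one strain alone, neither difference passed the threshold of 0.01 (adjusted p = 0.109 in A/J and 0.0157 in C57BL/6J), and within lot 1 the difference was 0.40 (adjusted p = 0.0651) against 0.96 within lot 2 (adjusted p = 0.00734).

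Fkbp4 encodes FKBP52, the related co-chaperone that favors hormone binding and the movement of the receptor to the nucleus. It was detected on all 35 arrays and spanned 10.89 to 11.78. Means were 11.31 ± 0.14 in A/J hippocampus (SD, n = 9), 11.40 ± 0.29 in C57BL/6J hippocampus (n = 9), 11.17 ± 0.23 in A/J amygdala (n = 8) and 11.36 ± 0.22 in C57BL/6J amygdala (n = 9). The 4 groups overlapped, and neither the region difference (0.09, 95% interval -0.08 to 0.26, adjusted p = 0.594) nor the strain difference (-0.14, 95% interval -0.31 to 0.04, adjusted p = 0.391) passed the test.

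In all, 3 of the 7 tested member probes, standing for 2 genes, were higher in hippocampus and none was higher in amygdala. Over all 10408 tested probes, 6.42% were higher in hippocampus and 5.76% in amygdala. The median region difference was 0.09 over the 7 member probes and 0.00 over all tested probes.

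**Figure D2:**
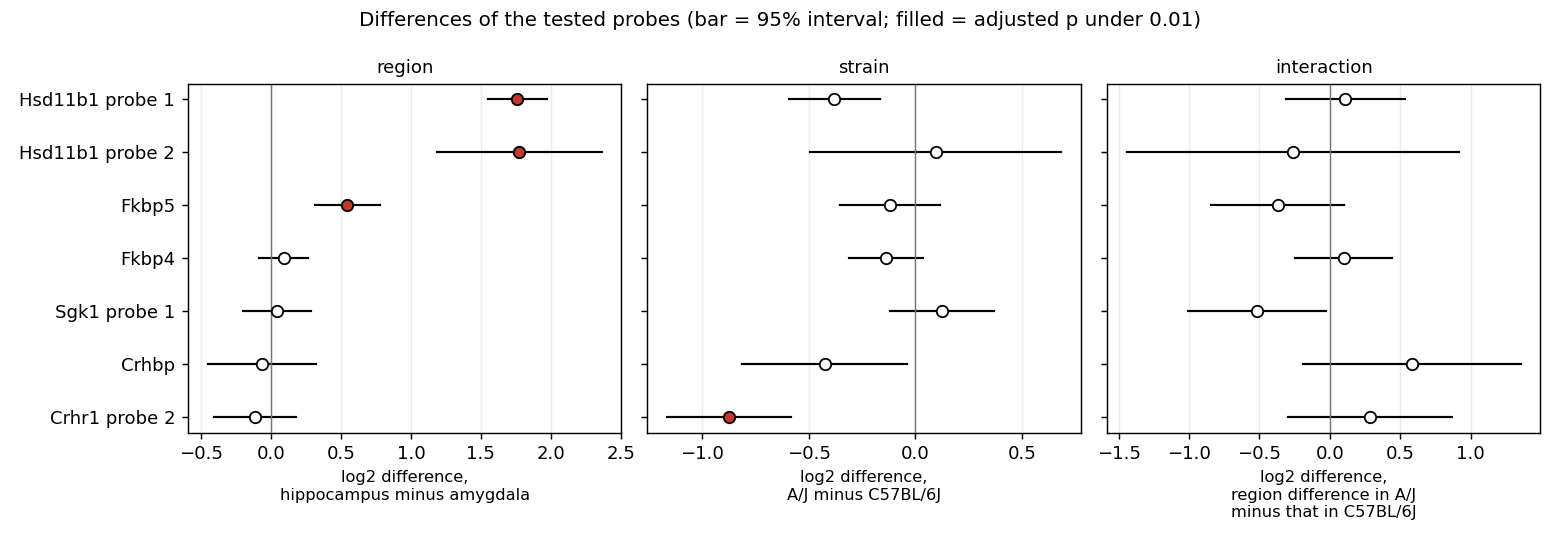
Differences of the 7 tested probes on the log2 scale with 95% intervals, for region, strain and the contrast of the region difference between strains, filled where the adjusted p was under 0.01. Both Hsd11b1 probes and Fkbp5 lie to the right in the region panel, and Crhr1 probe 2 lies to the left in the strain panel, where its A/J level is background and the plotted difference is no measured size.

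Of the 2 corticosteroid target genes, Sgk1 could be tested with 1 of its probes. Sgk1 encodes a kinase that is induced by glucocorticoids and mineralocorticoids and acts on ion channels and transporters. Its probe 1 was detected on all 35 arrays. Levels ranged from 9.78 to 10.65 (median 10.02) in A/J hippocampus, from 10.02 to 10.62 (median 10.17) in C57BL/6J hippocampus, from 9.58 to 11.19 (median 10.39) in A/J amygdala and, for C57BL/6J amygdala, from 9.18 to 10.46 (median 9.99). The groups overlapped, with the widest spread in A/J amygdala (SD 0.52, n = 8). The region difference was 0.04 (95% interval -0.20 to 0.29, adjusted p = 0.901) and the strain difference 0.13 (95% interval -0.12 to 0.37, adjusted p = 0.579). The mean was 0.22 lower in hippocampus than in amygdala in A/J and 0.30 higher in C57BL/6J, and this contrast (-0.52, SE 0.24) had an unadjusted p of 0.0396 and an adjusted p of 0.632. It did not pass the test.

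Probe 2 of Sgk1 was not tested. It was detected on 2 of 9 A/J hippocampus, 1 of 9 C57BL/6J hippocampus, 3 of 8 A/J amygdala and 1 of 9 C57BL/6J amygdala arrays. In each of the 4 groups its highest level (6.90, 6.18, 6.74 and 6.01) came from the array of that group with the most detected probes (10722, 9239, 10751 and 11039). The group medians lay between 4.57 and 4.74, below the lowest level of any detected probe.

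Tsc22d3 encodes GILZ, a glucocorticoid-induced leucine zipper protein. Its probe 1 was detected on none of the 35 arrays, with signals from -4.7 to 21.1 after subtraction of the background. Its probe 2 was detected on 4 arrays, 1 A/J hippocampus, 2 A/J amygdala and 1 C57BL/6J amygdala array, and each of these had at least 10499 detected probes. No regional or strain difference of this gene could be measured with these probes.

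The Nr3c1 probe was detected on no array, in either region or strain. Its signals ranged from -18.1 to 6.3, with medians of -4.9 in A/J hippocampus, -7.3 in C57BL/6J hippocampus, -2.7 in A/J amygdala and -9.2 in C57BL/6J amygdala. The lowest detection p-value was 0.243. The hippocampus is known to express the glucocorticoid receptor, so that these values describe the probe, and the receptor transcript was not measured here.

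The Crh probe was likewise detected on no array. Crh is the defining peptide of the axis and is known to be made by neurons of the central amygdala. Signals ranged from -24.4 to -7.0 in A/J hippocampus, from -22.1 to -9.8 in C57BL/6J hippocampus, from -16.4 to 3.5 in A/J amygdala and from -14.3 to -2.5 in C57BL/6J amygdala, and the lowest detection p-value was 0.319. All 4 groups stayed at background, so that no order between them can be read.

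**Figure D3:**
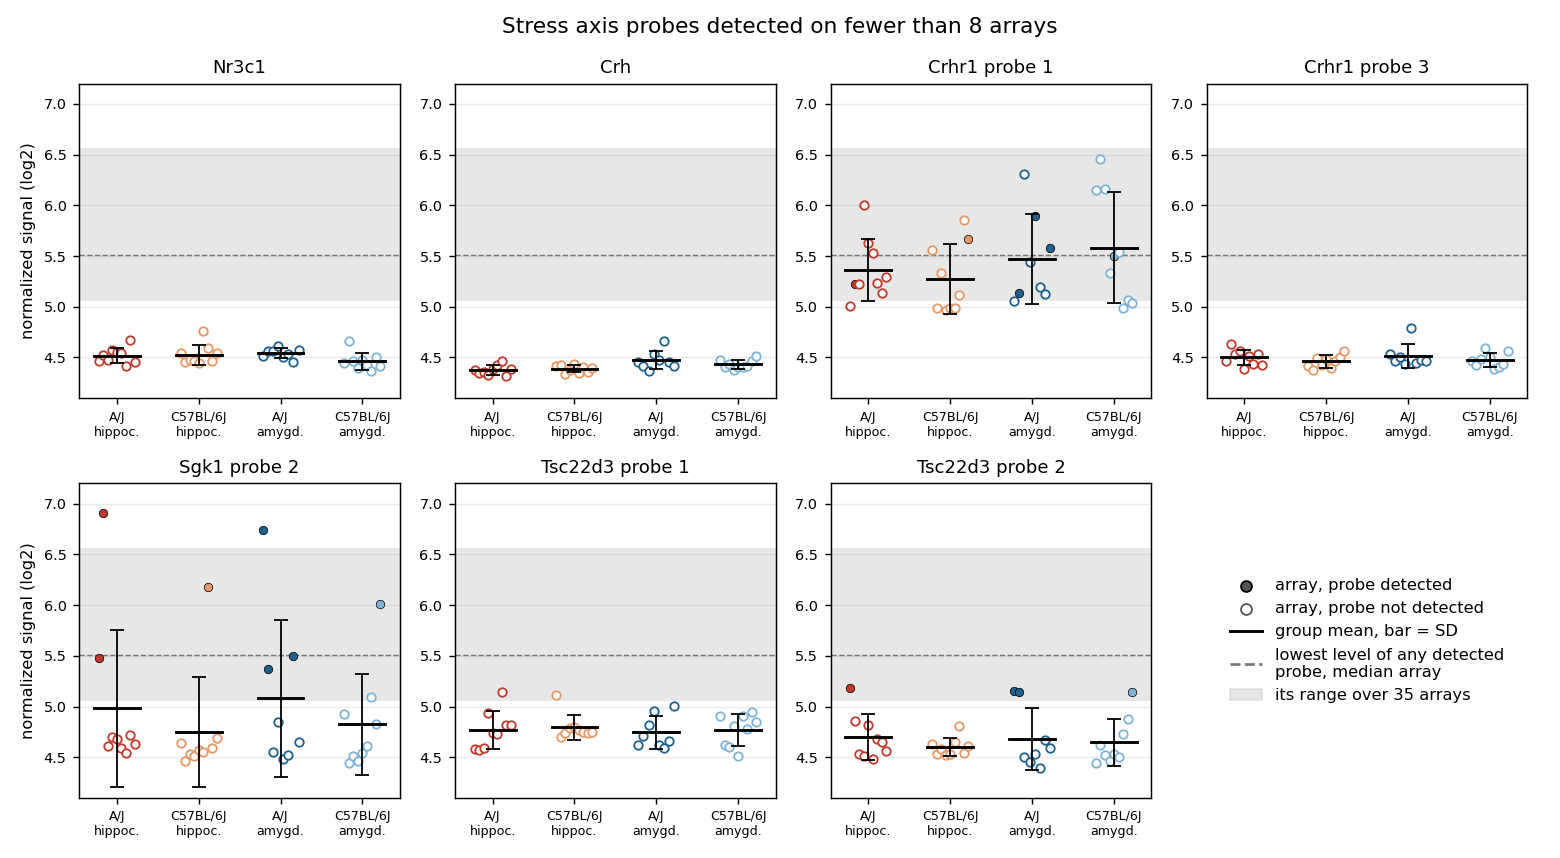
Normalized log2 signal of the 7 probes detected on fewer than 8 arrays, one point per array and filled where detected, with group means and SD bars, the gray band marking the lowest level of any detected probe over the arrays. Nr3c1, Crh, Crhr1 probe 3 and Tsc22d3 probe 1 were detected on none of the 35 arrays, and the 4 highest Sgk1 probe 2 points are single arrays, one per group.

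Crhr1, the CRH receptor that prevails in the forebrain had 3 probes, detected to different extents. Probe 3 was detected on no array, with signals from -19.0 to 5.9. Probe 1 was detected on 6 arrays, 1 in each group except A/J amygdala, where there were 3. Probe 2 passed the filter through C57BL/6J alone. It was detected on 4 of 9 C57BL/6J hippocampus and 4 of 9 C57BL/6J amygdala arrays, and on 0 of 9 and 0 of 8 arrays of A/J.

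Levels of Crhr1 probe 2 in A/J ranged from 4.48 to 4.82 (median 4.63) in hippocampus and from 4.56 to 4.74 (median 4.58) in amygdala. In C57BL/6J they ranged from 4.80 to 5.92 (median 5.48) in hippocampus and from 4.70 to 6.48 (median 5.54) in amygdala. The strains overlapped at the low end, and 14 of 18 C57BL/6J arrays lay above the highest A/J array. The measured means were 4.62 ± 0.09 in A/J (SD, n = 17) and 5.50 ± 0.58 in C57BL/6J (n = 18), with A/J lower on 7 of the 7 chips that held both strains. Since the probe was not well above background in any A/J array and its C57BL/6J mean lay below the mean lowest detectable level of the A/J arrays, 5.57, neither a fold nor a size of the difference is given. The fit gave an adjusted p of 2.0e-05, and with all 24620 probes tested and no filter an adjusted p of 4.4e-05. The filter let the probe in through the strain in which it is high, so that the direction among tested probes is not independent of it. The threshold of 0.01 was not reached within lot 1 (adjusted p = 0.0142) or within lot 2 (adjusted p = 0.0455). The probe sequence was not examined for bases that differ between the strains.

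The region difference of Crhr1 probe 2 was -0.11 (95% interval -0.41 to 0.18, adjusted p = 0.712). In C57BL/6J, probe 1 was detected on 2 and probe 3 on 0 of 18 arrays, so that neither measures a strain difference. All 6 arrays on which probe 1 was detected had at least 8160 detected probes, while its highest levels, up to 6.46, came from arrays with few detected probes and were not detected.

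Crhbp, the binding protein that takes up free CRH, was detected on all 35 arrays. Its levels ranged from 7.02 to 9.04 (median 8.60) in A/J hippocampus and from 7.57 to 9.26 (median 8.73) in C57BL/6J hippocampus. They ranged from 7.62 to 9.09 (median 8.06) in A/J amygdala and, for C57BL/6J amygdala, from 8.19 to 9.79 (median 9.05). The spread within groups was wide (SD 0.53 to 0.62), and each pair of groups overlapped. In A/J amygdala, 4 arrays lay at 7.62 to 7.74, 2 at 8.37 and 8.41, and 2 at 9.06 and 9.09, with both chip lots present at the low and at the high end. The A/J mean lay under the C57BL/6J mean (difference -0.43, SE 0.19, 95% interval -0.81 to -0.04), with an unadjusted p of 0.032 and an adjusted p of 0.193. This did not pass the test, nor did the region difference (-0.07, 95% interval -0.45 to 0.32, adjusted p = 0.895) or the contrast between them (0.58, 95% interval -0.19 to 1.35, adjusted p = 0.694).

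Between the strains, 1 of the 7 tested member probes, Crhr1 probe 2, passed the test, with A/J lower, and none was higher in A/J. The shares over all tested probes were 3.84% with A/J lower and 2.05% with A/J higher. Since this probe entered the test through C57BL/6J alone, nothing is read from the count, and none of the other 6 probes passed. Hsd11b1 probe 1 came next. It was lower in A/J by 0.38 on the log2 scale (difference -0.38, SE 0.10, 95% interval -0.59 to -0.17, 1.30-fold), at an adjusted p of 0.014, and A/J was the lower strain on 5 of 7 chips. Its strain difference was -0.32 in hippocampus alone (adjusted p = 0.361) and -0.43 in amygdala alone (adjusted p = 0.143). It was -0.54 within lot 1 (adjusted p = 0.0199) and -0.15 within lot 2 (adjusted p = 0.643). Probe 2 of Hsd11b1 had a strain difference of 0.10 (95% interval -0.49 to 0.69, adjusted p = 0.87). This interval holds the -0.38 of probe 1, so that probe 2 settles no strain direction. The sequence of probe 1 was not examined for bases that differ between the strains.

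For the contrast of the region difference between strains, 0 of the 7 member probes passed, against 0.0673% of all tested probes by limma. At an unadjusted p under 0.05 there was 1 member probe, Sgk1 probe 1, and 798 over all tested probes.

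**Figure D4:**
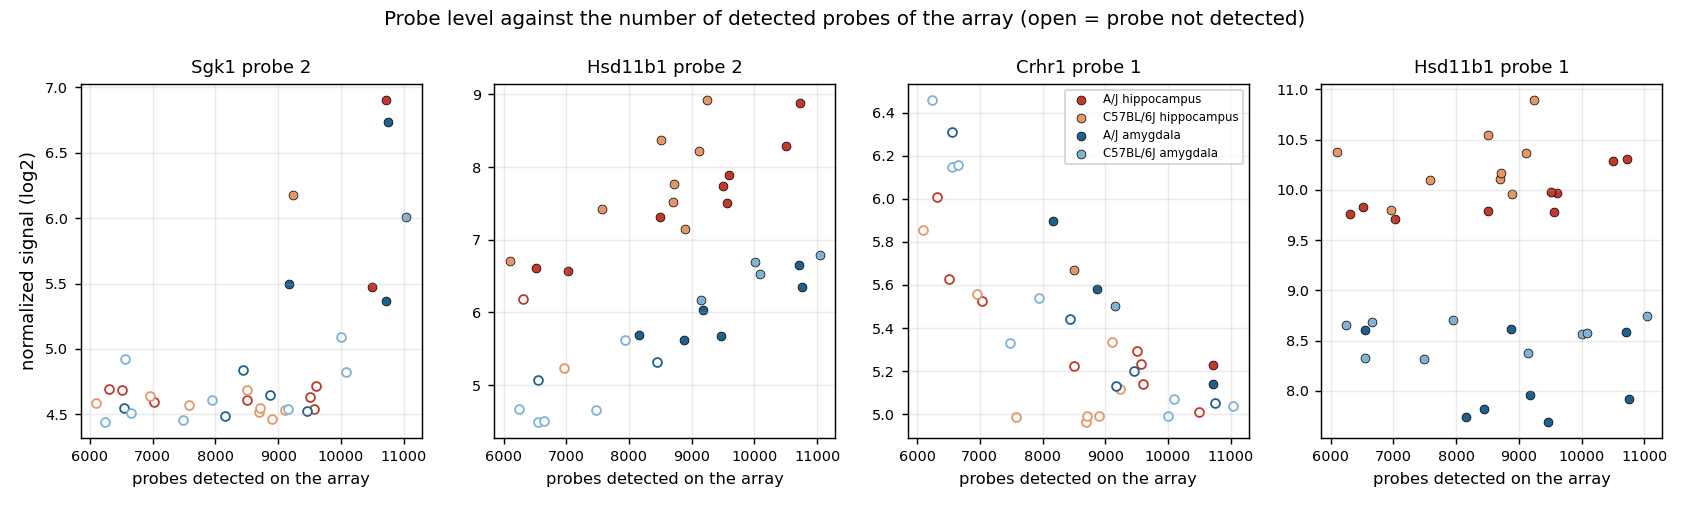
Normalized log2 signal of 4 member probes against the number of probes detected on the same array, one point per array, filled where the probe was detected and colored by group. Hsd11b1 probe 1 keeps its regional separation over the whole range of 6099 to 11039 detected probes, while Sgk1 probe 2 reaches its highest levels on the arrays with the most.

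The genes whose profile over the 35 arrays was most like a member's, after the number of detected probes was taken out, were looked up for the probes that differed by region. For Hsd11b1 probe 1 these were Nt5dc3 (r = 0.948), Tnnt1 (r = 0.939) and Smoc2 (r = 0.935). For probe 2 they were Smoc2 (r = 0.910), Tnnt1 (r = 0.898) and Sel1l3 (r = 0.892). All of these genes share the region difference, which picking by r over arrays of both regions favors. A second r was taken with group means removed but the number of detected probes left in. With probe 1 it was 0.349 for Nt5dc3, 0.225 for Tnnt1 and 0.395 for Smoc2. With probe 2 it was 0.544 for Smoc2, -0.126 for Tnnt1 and 0.672 for Sel1l3. The level of probe 2 itself had an r of 0.537 with the number of detected probes. Fkbp5 was most like Stard13 (r = 0.755), Cep85 (r = 0.750) and Jun (r = 0.739). Jun, an immediate early gene, was 2.10 higher in hippocampus on the log2 scale (adjusted p = 8.0e-14), a direction the same choice favors. Its second r with Fkbp5, with group means removed and the number of detected probes left in, was 0.657. This second r was 0.569 for Stard13 and 0.323 for Cep85. The correlations are descriptions over arrays that share chips and normalization.

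Other genes of the pathway were read through lists with 1 probe per gene. Of 19 tested genes that are known to respond to glucocorticoids, beyond the members, 5 were higher in hippocampus, none was lower, and 14 did not pass. They were Cebpb, a transcription factor (9.29 ± 0.70 in 18 hippocampus arrays against 7.49 ± 0.39 in 17 amygdala arrays, difference 1.80, adjusted p = 2.6e-09), Gpd1, the cytosolic glycerol-3-phosphate dehydrogenase (difference 1.39, adjusted p = 7.6e-13), the repressor Bcl6 (0.83, adjusted p = 8.5e-08), the zinc finger gene Zbtb16 (detected on 14 of 18 hippocampus and 9 of 17 amygdala arrays, means 6.25 and 5.56, adjusted p = 0.00203) and Errfi1, a brake on epidermal growth factor receptor signalling (0.41, adjusted p = 0.00243). The share over all tested probes was 6.42% higher and 5.76% lower in hippocampus, and the list had a median region difference of 0.23 against 0.00 over all tested probes. With every tested probe counted, 5 of 21 probes were higher and 1 lower. The list was chosen with earlier results of these data known, so nothing is read from its counts or median.

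Among 6 tested genes of steroid metabolism and transport other than Hsd11b1, Cyp7b1 was higher in hippocampus (difference 0.89, adjusted p = 8.4e-09). It encodes a steroid hydroxylase of brain. The other 5 did not pass. None of 9 tested chaperone genes and none of 5 coregulator genes passed for region or strain. Over all tested probes, 6.42% were higher and 5.76% lower in hippocampus, and 2.05% were higher and 3.84% lower in A/J. With such shares, counts in lists this short are not read as a result. In the Sgk1 pathway, 2 of 8 tested genes were higher in hippocampus and 1 was lower. Scnn1a, an epithelial sodium channel subunit, was detected on 18 of 18 hippocampus and 5 of 17 amygdala arrays, with means of 7.07 and 5.32 (adjusted p = 8.4e-10), and Nedd4l, the ubiquitin ligase that Sgk1 phosphorylates, was 0.49 higher (adjusted p = 9.7e-05). The amygdala means of Zbtb16 and Scnn1a lay below the mean lowest detectable level there, 5.63, so that no size is given for them. Scnn1a passed the filter through the hippocampus, where it is high, so that its direction is not independent of the filter. Ndrg1, a substrate of Sgk1, was lower in hippocampus (difference -0.63, adjusted p = 0.00112), as were 5 of the 6 tested oligodendrocyte markers. Oligodendrocytes are known to express Ndrg1, and the part of their markers in this result was not tested.

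**Figure D5:**
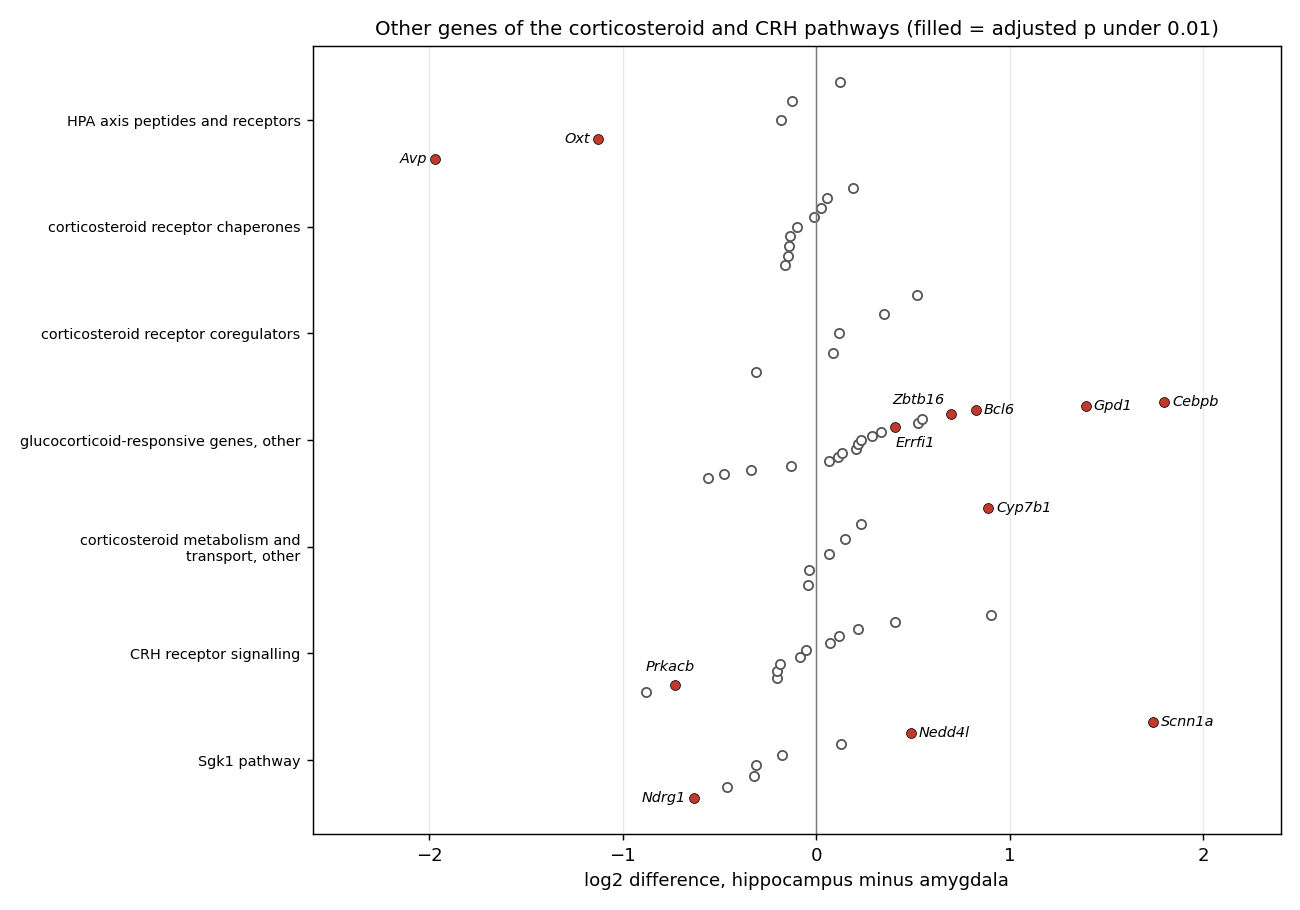
Region difference on the log2 scale of each tested gene of the other pathway lists, one point per gene and filled where the adjusted p was under 0.01. The called genes of the glucocorticoid-responsive list, from Errfi1 at 0.41 to Cebpb at 1.80, lie to the right, and Avp and Oxt lie to the left.

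On the peptide side of the axis, none of the 3 other CRH family genes with a probe could be tested. Of 5 tested peptide and receptor genes, Avp and Oxt were lower in hippocampus. Avp, vasopressin, was detected on 0 of 18 hippocampus and 14 of 17 amygdala arrays and was at least 2.03-fold lower in hippocampus (adjusted p = 5.9e-06), where the bound sets the amygdala mean of 6.69 against the lowest detectable level of the hippocampus arrays. Oxt, oxytocin, was detected on 2 of 18 and 12 of 17 arrays, with means of 5.34 and 6.47 (adjusted p = 0.00965), the former below the mean lowest detectable level of 5.67. The filter let Avp and Oxt in through the amygdala, the region in which they are high. Their direction among tested probes is thus not independent of the filter. Both also stand in the hypothalamus marker list, in which 6 genes had a probe and only Trh, Avp and Oxt were tested, so that its summed level (96 to 255 in hippocampus, 212 to 1413 in amygdala) holds these same genes. Of the other members, Trh was lower in hippocampus (difference -1.25, adjusted p = 9.2e-06), Hcrt was detected on 0 of 18 hippocampus and 5 of 17 amygdala arrays, and Sim1 and Otp were detected on no array. The part of hypothalamic tissue in this result was not tested. Among 12 tested genes of CRH receptor signalling, Prkacb, a catalytic subunit of protein kinase A, was lower in hippocampus (difference -0.73, adjusted p = 4.2e-06) and the other 11 did not pass. Over all tested probes, 5.76% were lower and 6.42% higher in hippocampus.

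Between strains, Pdk4, Sult1a1 and Ndrg2 passed among the tested genes of these lists. Over all tested probes, 2.05% were higher and 3.84% lower in A/J, and nothing is read from how many list genes passed. Pdk4, a kinase that restrains pyruvate dehydrogenase, was higher in A/J (6.66 ± 0.28, n = 17) than in C57BL/6J (6.06 ± 0.33, n = 18; difference 0.60, adjusted p = 4.4e-05). Sult1a1, a sulfotransferase, was lower in A/J (difference -0.46, adjusted p = 3.6e-04), as was Ndrg2 of the Sgk1 pathway (difference -0.85, adjusted p = 3.5e-08). The probe sequences of these genes were not examined for bases that differ between the strains, so that these are differences in probe signal. No gene of these lists passed for the contrast of the region difference between strains.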

How the data were processed

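RNA of 35 punched samples was hybridized by the authors to Illumina MouseRef-8 arrays, 1 sample per array. The deposited intensity values are background-subtracted BeadStudio signals on a linear scale (31.0% were at or below 0), with a deposited detection score per probe, written with decimal commas. The authors' processed log2 table (24613 probes, made with Lumi per the methods) ranks the probes of each array as the signals do, and was used as an alternative. Probes were named from the platform annotation, in which 20984 have 1 symbol, 1 has several and 3635 have none.

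Background was modelled by normexp, using the detection p-values in place of control beads, with an offset of 16; values were then quantile normalized and taken to log2 (limma 3.58.1, R 4.3.3). A probe had to be detected (p under 0.01) on 8 or more arrays, and the probes kept were tested in one limma fit of 4 group means, with Benjamini-Hochberg adjustment over 10408 probes and a threshold of 0.01. A bound ("at least") sets the brighter group's mean against, per array, the lowest level of any detected probe. The scripts were tested on simulated data.

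All probes of the member genes were named. From each pathway list, using the tested probe with the highest mean, at most 4 genes per direction with the largest difference past the threshold were to be named, and Errfi1, beyond that limit, was added after its value was seen. Oligodendrocyte, striatal, hypothalamic and other marker lists were used to check the punches; astrocyte, microglia, endothelial and choroid plexus lists stand in the closing section. The members and lists were chosen with earlier results of these data known. Alternatives covered the background correction, normalization, filter, chip, chip lot, array quality, single strains or regions and leaving out each array. Probe sequences were not used here.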

Additional observations from a re-analysis of the deposited data

Results flagged for a closer look

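Of 56 combinations of a member probe and a group, 9 held an array set apart from the rest of its group by Dixon's test, and chance alone flags about 1 in 20. For Sgk1 probe 2 an array stood apart in each of the 4 groups, at 6.90 in A/J hippocampus (replicate 2), 6.18 in C57BL/6J hippocampus (replicate 7), 6.74 in A/J amygdala (replicate 1) and 6.01 in C57BL/6J amygdala (replicate 9). Each was the array of its group with the most detected probes, and the probe was detected on it. The other 5 were of undetected probes. Nr3c1 stood apart at 4.76 in C57BL/6J hippocampus (replicate 6) and at 4.66 in C57BL/6J amygdala (replicate 2). Crhr1 probe 3 stood apart at 4.79 in A/J amygdala (replicate 5). Tsc22d3 stood apart in C57BL/6J hippocampus at 5.11 with probe 1 (replicate 1) and at 4.80 with probe 2 (replicate 7). None of the 7 tested member probes held such an array.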

How the results depend on the processing

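Hsd11b1 probe 1 was higher in hippocampus with an adjusted p under 0.01 under each of the 19 alternatives, at 0.80 with the authors' processed values, which compress differences of dim probes, and otherwise at 1.66 to 1.83. On that compressed scale Fkbp5 stood at 0.055 and Hsd11b1 probe 2 at 0.17, each still past the threshold. The count of member probes higher in hippocampus, 3, was 1 without normalization between arrays (494 called of all probes, against 1267) and 1 among the 4820 probes detected on all arrays (808), where Fkbp5 and Hsd11b1 probe 2 are not tested. It was 2 within lot 1, within lot 2, in A/J alone and in C57BL/6J alone. Without that normalization Fkbp5 stood at 0.43 (adjusted p = 0.519) and Hsd11b1 probe 2 at 1.46 (adjusted p = 0.0236), and the latter had an adjusted p of 0.0462 within lot 2. Leaving out each array in turn kept the count at 3 in all 35 fits. The strain count, 1, was 0 among probes detected on all arrays, within lot 1, within lot 2 and in amygdala arrays alone, where Crhr1 probe 2 had an adjusted p of 0.0128. It was 2 with chip as a random block, with the number of detected probes as a covariate, with array weights and at an adjusted p of 0.05, and 1 to 2 when each array was left out, Hsd11b1 probe 1 (-0.38, adjusted p = 0.014; called in 6 of 35 such fits) being the added probe. The contrast between strains called 0 member probes throughout.

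With arrays scaled to a common median, 576 probes were higher and 742 lower in hippocampus, against 668 and 599. Counts over all probes also moved: for region to 679 and 368 within lots 1 and 2, 824 and 510 in A/J and C57BL/6J alone, 2125 with array weights; for strain (613) to 294 without normalization between arrays, 291 for probes detected on all arrays, 315 and 241 within the lots, 320 and 319 in hippocampus and amygdala alone, and 1754 with array weights; for the contrast (7) between 0 within lot 2 and 169 with array weights. Without normalization between arrays the median strain difference of all probes was 0.29. Relative to it, the strain differences of 0.16 for Fkbp5, 0.14 for Fkbp4 and -0.03 for Hsd11b1 probe 1 under that setting lay below the median probe.

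Differences that changed sign were all short of the threshold. For region these were Crhr1 probe 2 (0.035 within lot 2, 0.026 in A/J alone), Crhbp (0.14 within lot 2, 0.22 in A/J alone, -0.11 to 0.020 when each array was left out) and Sgk1 probe 1 (-0.22 in A/J alone, -0.0096 to 0.11 when each array was left out). For strain these were Fkbp5 (0.025 with chip as a fixed block, 0.16 within lot 2, 0.067 in amygdala alone), Sgk1 probe 1 (-0.19 within lot 1, -0.13 in hippocampus alone) and Hsd11b1 probe 2 (-0.17 with arrays scaled to a common median, -0.25 and -0.067 with chip as a fixed and a random block, -0.23 within lot 1, -0.20 with detected probes as a covariate, -0.036 in hippocampus alone and -0.045 to 0.19 when each array was left out). The causes were not tested. No paired analysis was possible because the labels carry no replicate numbers and tie no samples to one animal. Of the 7 member probes that were not tested, 4 were detected on no array and the others on 4 to 7 arrays, and none passed for region or strain when no filter was used.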

Other observations

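Of the marker lists that were not set beside a result, the 4 tested astrocyte markers, the 5 tested microglia markers and the 4 tested endothelial markers did not pass for region. Among the 4 tested choroid plexus markers, Clic6 was lower in hippocampus (difference -2.66, adjusted p = 5.8e-11), and the summed level of the list ranged from 176 to 17911 over the arrays. Between strains, the microglial complement gene C1qb was lower in A/J (difference -1.13, adjusted p = 2.9e-06), and no other marker of the 10 lists passed. Its probe sequence was likewise not examined for bases that differ between the strains.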
